A study of Mus musculus with 4 samples.

Results

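The regions described here are the open chromatin peaks assigned to genes of the tumour necrosis factor (TNF) superfamily of ligands, their receptors, and the TRAF adaptor proteins. Members were chosen by gene symbol alone, with no measured value in the rule: every peak whose assigned gene is a Tnfsf or Tnfrsf gene, Traf1 to Traf7, or Tnf, Lta, Ltb, Ltbr, Fas, Fasl, Cd40, Cd40lg, Cd27 or Cd70. This gave 267 peaks of 47 genes, out of 130941 peaks in all. They divide into 69 tested peaks of 16 ligand genes, 144 tested peaks of 23 receptor genes, 52 peaks of the 7 TRAF genes and 1 peak of Tnfsf13os, an antisense RNA gene that the symbol rule also takes in. Of the 267 peaks, 266 passed the filter on low counts, and the one that did not is an intergenic Tnfrsf8 peak at which the wild-type libraries had 22 and 4 counts and the null libraries 5 and 7. Cd40lg and Tnfrsf4, which the rule takes in too, had no peak assigned to them. Accessibility was measured by fast-ATAC, in which a transposase cuts and tags open DNA so that counts per region rise with its opening. The sorted Lin-Sca1+ckit+ fraction of bone marrow was used, which is enriched for haematopoietic stem cells and multipotent progenitors. Wild-type and Helios null mice gave 2 libraries each, at 10 weeks of age. Helios, the product of Ikzf2, is a zinc finger transcription factor related to Ikaros. The sources used here do not state the strain, nor how or in which cells the gene was deleted.

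As background, ligands of this superfamily are trimeric proteins on the cell surface or shed from it, and each binds one or a few receptors. Receptors with a death domain, such as Tnfrsf1a, Fas and Tnfrsf10b, can start cell death through the adaptors TRADD and FADD, while most others bind TRAF proteins directly and feed the NF-kB and MAP kinase pathways. In bone marrow the family is known for TNF itself, an inflammatory signal sensed by stem cells, for Cd27, a surface marker of multipotent and lymphoid-primed progenitors, for the osteoclast axis of Tnfsf11, its receptor Tnfrsf11a and the decoy Tnfrsf11b, and for the B cell survival ligands Tnfsf13 and Tnfsf13b with their receptors Tnfrsf13b, Tnfrsf13c and Tnfrsf17.

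Promoter DNA is shown for the member promoter peaks with an unadjusted p under 0.05 between genotypes, because these are the start sites to which the values below refer. There were 8 such peaks, and for 5 of them a RefSeq promoter window of the gene (build GRCm38.p6) lay inside the peak. The 250 bases before each start are printed 5′ to 3′ on the gene's strand. Capitals mark matches, on either strand, to any of 6 motifs: the NF-kB consensus, the Ikaros-family core TGGGAA, RUNX (TGTGGT), the letters AGATAA of GATA factors, AP-1 (TGANTCA) and ETS (CCGGAAGT). These windows were chosen after the values were seen.
Tnfsf13 (minus strand, chr11:69685555-69685804): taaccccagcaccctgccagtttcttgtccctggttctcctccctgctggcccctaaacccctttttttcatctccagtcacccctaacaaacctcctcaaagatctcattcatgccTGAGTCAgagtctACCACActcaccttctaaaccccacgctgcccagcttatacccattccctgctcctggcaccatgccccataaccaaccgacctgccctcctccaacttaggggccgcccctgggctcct
Tnfrsf9 (plus strand, chr4:150927749-150927998): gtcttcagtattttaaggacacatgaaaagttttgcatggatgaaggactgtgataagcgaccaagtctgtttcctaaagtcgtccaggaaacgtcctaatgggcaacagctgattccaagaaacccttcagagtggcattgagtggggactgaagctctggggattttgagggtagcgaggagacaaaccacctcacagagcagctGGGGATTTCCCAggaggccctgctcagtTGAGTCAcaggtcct
Tnfrsf13c (minus strand, chr15:82224381-82224630): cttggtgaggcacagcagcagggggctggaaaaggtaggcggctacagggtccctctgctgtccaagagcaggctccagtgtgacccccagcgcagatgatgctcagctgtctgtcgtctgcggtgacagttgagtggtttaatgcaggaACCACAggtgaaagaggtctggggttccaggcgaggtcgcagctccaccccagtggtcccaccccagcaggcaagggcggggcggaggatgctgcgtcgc
Tnfrsf8 (minus strand, chr4:145315165-145315414): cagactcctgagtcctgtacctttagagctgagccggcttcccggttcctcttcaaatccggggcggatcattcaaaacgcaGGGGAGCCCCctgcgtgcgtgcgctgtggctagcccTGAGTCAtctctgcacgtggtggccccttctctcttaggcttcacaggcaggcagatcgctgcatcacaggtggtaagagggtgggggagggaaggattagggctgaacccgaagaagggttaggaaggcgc
Tnfrsf11a (plus strand, chr1:105780473-105780722): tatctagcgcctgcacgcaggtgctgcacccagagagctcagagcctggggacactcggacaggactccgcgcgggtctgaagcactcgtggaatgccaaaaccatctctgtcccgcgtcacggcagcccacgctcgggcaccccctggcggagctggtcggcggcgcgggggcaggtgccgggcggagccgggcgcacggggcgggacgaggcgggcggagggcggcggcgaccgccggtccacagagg
The promoter of Tnfrsf9, which encodes the costimulatory receptor 4-1BB, held a pair of overlapping NF-kB matches from base -43 to base -33 before the start. An Ikaros-family match on the other strand (bases -37 to -32) overlapped them, and an AP-1 match lay at bases -15 to -9. The AP-1 letters TGAGTCA also stood in the Tnfsf13 window (bases -133 to -127) and the Tnfrsf8 window (bases -132 to -126), and the Tnfrsf8 window also held an NF-kB match on the other strand (bases -168 to -159). A RUNX match stood in the Tnfsf13 window (bases -120 to -115) and in the Tnfrsf13c window (bases -100 to -95), and the Tnfrsf11a window held none of the 6 motifs. Of the 47 genes, 37 have a RefSeq window, and the first listed window of each gene was searched. For Tnfrsf9 this was a different window from the one printed above, whose matches therefore do not enter the counts. The NF-kB consensus was found in 3 of these 37 windows (8.11%), at Ltb, Tnfrsf8 and Traf3, against 3.75% of 27025 windows of all genes. The Ikaros-family core was found in 6 (16.2%), at Fas, Lta, Tnfrsf14, Tnfrsf23, Tnfsf15 and Traf5, against 21.5% of all. The AP-1 form was found in 10.8% against 6.87%, RUNX in 16.2% against 14.2%, GATA in 2.7% against 10.3% and ETS in 2.7% against 2.93%. A match is a description of letters in the window, not a bound site.

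Of the 9 peaks of the targeted gene Ikzf2, 6 had a log2 fold change below 0. The strongest of them, at the promoter, had normalised read counts (CPM, scaled to a common library total) of 32.8 and 48.2 in the wild-type libraries and 22.2 and 24.04 in the null libraries (log2 fold change -0.80, edgeR adjusted p = 0.189), and the 3 other promoter-class peaks, at 0.04, -0.15 and -0.25, overlapped between genotypes. Which part of Ikzf2 was removed is not stated, so its peaks do not check the genotype. Total counts per library ran from 16033211 to 30290804, wild type 2 being the shallowest. Y-linked peaks held 1715 and 1166 counts in wild type 1 and Helios null 1 and at most 5 in the others, so in each genotype the first library came from a male and the second from a female. Differences within a library number are given as values. Of the 10 stem and progenitor markers fixed for a check of the sort, 9 had a promoter peak, with a median of 17.6 CPM, Ly6a being the exception. Among markers of other cells, 2 of 8 T and NK cell, 3 of 6 B cell, 4 of 7 mature myeloid and 4 of 6 erythroid genes had one, with medians of 2.91, 7.59, 6.45 and 1.37 CPM. The summed level of the mature myeloid markers was 23.8 and 20.1 CPM in wild type and 30.2 and 24.3 in Helios null. The stem and progenitor, B cell and erythroid sums likewise had both null libraries above both wild-type libraries, while the T and NK cell sums overlapped. Among the mature myeloid genes, Adgre1 had a log2 fold change of -0.702, and Cd68, Itgam and Csf1r had 0.943, 0.416 and 0.403. The part of these marker levels in the results below was not tested. In bulk libraries, more cells with a site open and a wider opening in each cell cannot be told apart.

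Which sites of the family differ when Helios is missing was asked in the fit over all 130754 tested peaks. None of the 266 member peaks passed an adjusted p of 0.05 in edgeR's quasi-likelihood test, where 0.000765% of all tested peaks passed as higher and 0.00535% as lower, and the smallest edgeR adjusted p of a member was 0.189. No member passed in limma-voom. In DESeq2, 1 of the 84 members with an adjusted p passed (1.19%), against 2.88% of all tested peaks with one. At an unadjusted p under 0.05, 25 member peaks (9.4%) were higher in Helios null, against 8.29% of all tested peaks, and 16 (6.02%) were lower, against 11.5%. At 79 member peaks (29.7%, against 28.0% of all tested peaks) the null libraries were both on top, and at 66 (24.8%, against 28.3%) the wild-type libraries were. The median log2 fold change of the members was 0.09, against 0.01 over all tested peaks, and 147 of 266 (55.3%, against 50.4%) were above 0. With each gene counted once by its median, 31 of 47 genes lay above 0 and the median over genes was 0.26, since genes with many peaks tended to lie lower: of the 19 genes with 5 or more peaks, 8 had a median above 0. Among genes with 4 or more peaks and at least 10 other peaks within 250 kb, 15 of 28 members lay above 0. Over all such genes it was 6495 of 11740, so the members were near the background in this. With wild type 1 left out the median over peaks was 0.15, with wild type 2 left out 0.02, and with Helios null 1 left out 0.03. Without wild type 1, 43 member peaks (16.2%) passed edgeR, 30 higher and 13 lower, when 21.5% of all tested peaks passed.

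**Figure D1:**
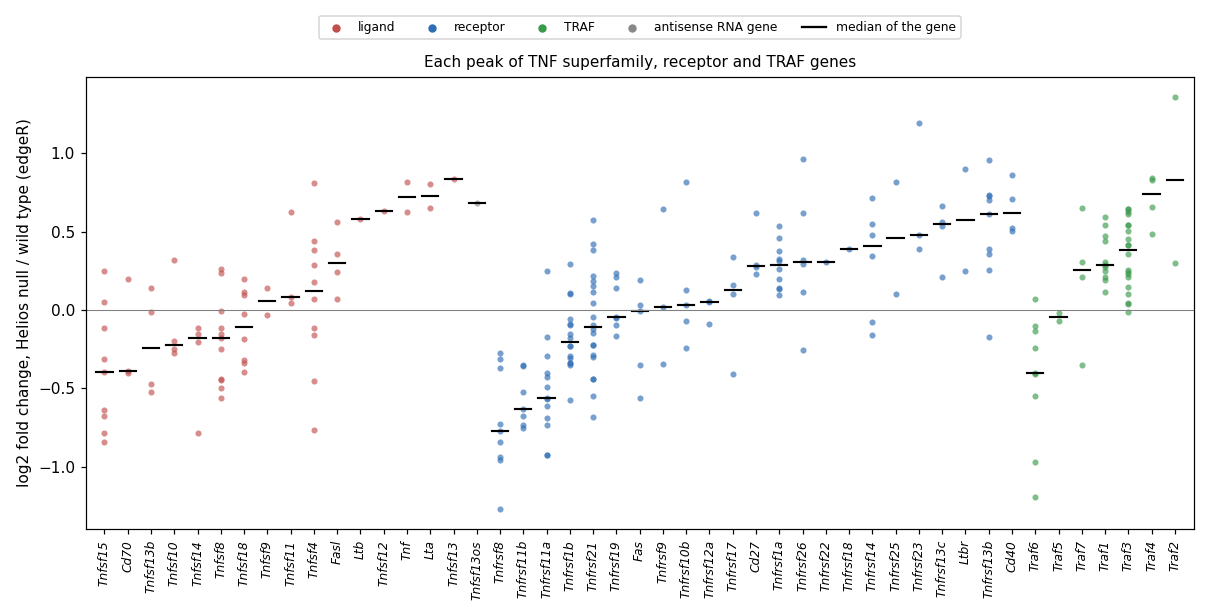
Log2 fold change (Helios null over wild type, edgeR) of each of the 266 tested peaks, 1 point a peak, in a column per gene, ordered by the gene's median (black line) within ligands, the antisense RNA gene, receptors and TRAF genes. Genes of each class lie on both sides of 0, from Tnfrsf8 with a median of -0.77 to Tnfsf13 and Traf2 at 0.84 and 0.83.

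Ligand genes as a class were centred near 0. Over their 69 peaks the median log2 fold change was -0.03 (0.01 without wild type 2), 31 lay above 0, and the groups did not overlap at 13 higher peaks (18.8%, against 28.0% of all tested peaks) and 22 lower ones (31.9%, against 28.3%). The ligand site with the smallest p lies in intron 1 of 2 of Tnfsf4 (chromosome 1, start 161396391, end 161397201), which encodes OX40 ligand, a costimulator of T cells. It held 17.3 and 16.6 CPM in wild type and 32.2 and 27.1 in Helios null. Both null libraries were above both wild-type libraries, with means of 16.9 ± 0.479 and 29.7 ± 3.57 CPM (SD, n = 2 each) and a log2 fold change of 0.81 (SE 0.20, edgeR adjusted p = 0.189). Within library numbers the difference was 0.90 and 0.71, and the log2 fold change stayed between 0.68 and 0.93 with each library left out. This was the only member peak that DESeq2 called (DESeq2 adjusted p = 0.047), 1.19% of members with an adjusted p against 2.88% of all tested peaks with one. A neighbouring peak that spans the edge of the gene (start 161395372, end 161396305) held 11.8 and 13.4 CPM in wild type and 19.5 and 14.4 in Helios null. The other 8 peaks of Tnfsf4 held at most 4.20 CPM in any library, and their log2 fold changes lay between -0.76 and 0.38.

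Tnfsf13, which encodes the B cell factor APRIL, followed among the ligands. Its promoter peak (chromosome 11, start 69685048, end 69686161), whose sequence is printed above, held 11.5 and 8.98 CPM in wild type and 19.9 and 16.8 in Helios null. The groups did not overlap (log2 fold change 0.84, SE 0.23, edgeR adjusted p = 0.189). Without wild type 1 the log2 fold change of this peak was 1.02. The promoter of the adjacent gene Tnfsf12, which encodes TWEAK, held 8.04 and 8.14 CPM against 14.3 and 10.7 (log2 fold change 0.63, edgeR adjusted p = 0.213). A peak in intron 3 of 3 of Tnf (chromosome 17, start 35200413, end 35200830) held 11.5 and 5.04 CPM in wild type and 16.2 and 13.4 in Helios null. Its wild-type libraries differed from each other more than wild type 1 differed from Helios null 2, and its log2 fold change of 0.82 (SE 0.34, edgeR adjusted p = 0.223) went from 0.37 without wild type 2 to 1.55 without wild type 1. A peak 5985 bp from Fasl, the gene of the death ligand of Fas, held 23.3 and 19.6 CPM against 37.1 and 26.3 (log2 fold change 0.56, edgeR adjusted p = 0.216). With 1 library left out this ranged from 0.29 (without Helios null 1) to 0.79.

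On the lower side, an intergenic peak 37801 bp from Tnfsf15, which encodes the ligand of the receptor Tnfrsf25, held 6.91 and 7.88 CPM in wild type and 4.16 and 5.32 in Helios null (log2 fold change -0.64, edgeR adjusted p = 0.232). The 9 peaks of Tnfsf15 were centred at -0.39 on the log2 scale, with 2 above 0. The 11 peaks of Tnfsf8, the ligand gene of Tnfrsf8, had -0.18, with 2 above 0. At 7 of the Tnfsf8 peaks the null libraries both lay below wild type, against 28.3% of all tested peaks. Tnfsf18 and Tnfsf4, with 8 and 10 peaks, had medians of -0.11 and 0.12. The 4 peaks of Tnfsf10, which encodes the death ligand TRAIL, had a median of -0.22, and the 4 of Tnfsf13b, which encodes BAFF, had -0.24.

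Receptor genes held the lowest values of the family. Over their 144 peaks the median log2 fold change was 0.04 (-0.03 without wild type 2), 75 lay above 0, and the groups did not overlap at 39 higher and 39 lower peaks (27.1% each, against 28.0% and 28.3% of all tested peaks). All 9 tested peaks of Tnfrsf8, which encodes the lymphoid activation antigen CD30, lay below 0, and their median was -0.77. At 8 of them both null libraries lay below both wild-type libraries, and 6 had an unadjusted p under 0.05. The peak with the smallest p among receptors lies in intron 6 of 12 of Tnfrsf8 (chromosome 4, start 145289324, end 145289855). It held 3.26 and 2.91 CPM in wild type and 1.06 and 1.53 in Helios null (log2 fold change -1.27, SE 0.35, edgeR adjusted p = 0.189). A distant-promoter peak of the same gene (start 145322195, end 145322621) held 5.71 and 10.3 CPM in wild type and 4.12 and 4.10 in Helios null, so that wild type 2 stood far above the other 3 libraries (log2 fold change -0.94, and -0.48 without wild type 2). The Tnfrsf8 promoter peak held 6.71 and 10.1 CPM against 3.76 and 5.54. Without wild type 1 the log2 fold changes of the intron 6 peak and the distant-promoter peak were -1.19 and -1.33.

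Both receptors for the osteoclast ligand Tnfsf11 lay lower. All 7 peaks of Tnfrsf11b, which encodes the soluble decoy osteoprotegerin, lay below 0 (median log2 fold change -0.63). Its peak in exon 5 of 5 (chromosome 15, start 54251333, end 54252196) held 34.1 and 45.3 CPM in wild type and 22.5 and 25.1 in Helios null. The groups did not overlap (log2 fold change -0.74, SE 0.21, edgeR adjusted p = 0.189). Its promoter peak held 26.6 and 38.4 CPM against 16.5 and 24.04 (log2 fold change -0.68, edgeR adjusted p = 0.203). When wild type 1 was left out, the 2 peaks were at -0.94 and -0.93, and when wild type 2 was left out they were at -0.52 and -0.40. The promoter peak was at -0.43 without Helios null 1. Tnfrsf11a, which encodes the signalling receptor RANK and lies on chromosome 1 as Ikzf2 does, had 12 of 13 peaks below 0, with a median of -0.56. At 9 of them both null libraries lay below both wild-type libraries, which held at 32.7% of all tested peaks on chromosome 1. Its promoter peak (start 105779938, end 105781423) held 20.3 and 22.9 CPM in wild type and 12.5 and 16.7 in Helios null (log2 fold change -0.56, SE 0.22, edgeR adjusted p = 0.216). This peak was at -0.66 without wild type 1 and at -0.37 without Helios null 1. The 3 peaks of the ligand gene Tnfsf11 itself had a median of 0.08, all above 0.

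Other receptor genes lay higher. A peak assigned to Tnfrsf23, a decoy receptor gene of mouse, held 2.49 and 1.29 CPM in wild type and 4.85 and 4.10 in Helios null (chromosome 7, start 143689994, end 143690332; log2 fold change 1.19, SE 0.35, edgeR adjusted p = 0.189). It lies 4122 bp from Tnfrsf23, inside the lipid transfer gene Osbpl5. A distant-promoter peak 15549 bp from Tnfrsf14, which encodes the receptor HVEM, held 13.1 and 9.49 CPM against 20.02 and 17.3 (log2 fold change 0.72, SE 0.24, edgeR adjusted p = 0.191). Without wild type 1 the log2 fold changes of these sites were 1.78 and 0.97, and without wild type 2 they were 0.85 and 0.51. All 4 peaks of Cd40, the B cell and dendritic cell costimulator, were non-overlapping and higher (against 28.0% of all tested peaks), with a median of 0.62. The Cd40 promoter held 6.81 and 2.91 CPM against 7.62 and 8.68. The receptors for the B cell factors lay above 0 too, with a median of 0.61 over 9 peaks of Tnfrsf13b (8 above 0), 0.55 over 4 peaks of Tnfrsf13c and 0.13 over 4 peaks of Tnfrsf17. The Tnfrsf13c promoter held 14.5 and 9.88 CPM against 20.2 and 15.97 (edgeR adjusted p = 0.245). Its log2 fold change of 0.56 went to 0.87 without wild type 1 and to 0.33 without wild type 2. The Tnfrsf9 promoter peak with the NF-kB letters, the weaker of 2 for this gene, held 5.25 and 5.04 CPM against 8.51 and 7.59 (log2 fold change 0.65, edgeR adjusted p = 0.217). The stronger one was at 0.02.

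The TNF receptors and Fas lay nearer 0. All 10 peaks of Tnfrsf1a, the TNF receptor gene with a death domain, lay above 0 (median log2 fold change 0.29), and its promoter held 23.2 and 19.8 CPM in wild type and 25.9 and 20.03 in Helios null. Tnfrsf1b, the second TNF receptor, which lacks a death domain, had 16 peaks with a median of -0.21 and 3 above 0, of which 4 lie inside the neighbouring gene Tnfrsf8. Its highest peak, in intron 1, held 74.0 and 76.4 CPM in wild type and 61.5 and 66.8 in Helios null, with no overlap of the groups (unadjusted p = 0.207 in edgeR). Tnfrsf21, a death-domain receptor gene with 20 peaks, had a median of -0.11 and a range of -0.68 to 0.57. Fas had a median of -0.01 over 5 peaks, and its promoter held 15.7 and 17.7 CPM in wild type and 17.3 and 15.9 in Helios null, with overlapping groups. Tnfrsf14, Tnfrsf26, Tnfrsf10b and Tnfrsf19, with 6, 6, 5 and 7 peaks, had medians of 0.41, 0.31, 0.03 and -0.05.

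TRAF genes stood highest of the 3 classes by counts. Of their 52 peaks, 40 (76.9%, against 50.4% of all tested peaks) had a log2 fold change above 0, and the null libraries were both on top at 26 of 52 (against 28.0% of all tested peaks) and both at the bottom at 5 (9.62%, against 28.3%). The median was 0.26, and 0.41 without wild type 1 and 0.16 without wild type 2, and between 36 and 41 peaks stayed above 0 with each library left out. Peaks of 1 gene share a locus, so these counts rest on 7 genes, of which 5 had a median above 0. With all 4 libraries, no TRAF peak passed in edgeR, limma-voom or DESeq2 without a term for library number. At an unadjusted p under 0.05 in edgeR there were 7 higher (13.5%, against 8.29% of all tested peaks) and 2 lower (3.85%, against 11.5%). Traf3, an inhibitor of the alternative NF-kB pathway, had 19 of 20 peaks above 0 (median 0.39, 12 non-overlapping higher), and Traf1, an adaptor that is itself induced by NF-kB, 11 of 11 (median 0.29, 6 non-overlapping higher). Traf4 had 4 of 4 peaks above 0, all non-overlapping, with a median of 0.74.

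Single TRAF sites varied in level and in direction. In intron 4 of 10 of Traf2, an adaptor of the TNF receptors, a weak peak (chromosome 2, start 25534191, end 25534817) had wild-type values of 1.20 and 0.323 CPM, from 36 and 5 counts, and null values of 2.41 and 1.83 CPM, from 73 and 42 counts. The log2 fold change was 1.36 (SE 0.50, edgeR adjusted p = 0.201), and 0.83 without wild type 2. The intron 1 peak of Traf4 (chromosome 11, start 78164051, end 78164772) held 5.81 and 3.16 CPM against 9.20 and 7.20 (log2 fold change 0.84, edgeR adjusted p = 0.208). An intergenic Traf1 peak held 24.4 and 16.5 CPM against 33.3 and 28.9 (log2 fold change 0.60, edgeR adjusted p = 0.209), and a distant-promoter Traf3 peak 3.92 and 3.75 against 6.53 and 5.45 (log2 fold change 0.64, edgeR adjusted p = 0.233). Traf6, which relays signals of Tnfrsf11a, Cd40 and the Toll-like receptors, went the other way, with 1 of 9 peaks above 0 and a median of -0.40. Its exon 1 peak (chromosome 2, start 101678082, end 101679071) held 24.9 and 28.8 CPM in wild type and 16.9 and 19.8 in Helios null (log2 fold change -0.55, SE 0.21, edgeR adjusted p = 0.204). A weak peak in intron 6 of 7 of Traf6 had 25 and 14 wild-type counts and 12 and 8 null counts (log2 fold change -1.19, SE 0.48, edgeR adjusted p = 0.220). Without wild type 1 the log2 fold changes of the named peaks of Traf2, Traf4 and Traf1 were 2.69, 1.37 and 0.90, and that of the Traf6 exon peak was -0.66. Without wild type 2 the log2 fold changes of the Traf4 and Traf1 peaks were 0.50 and 0.35.

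**Figure D2:**
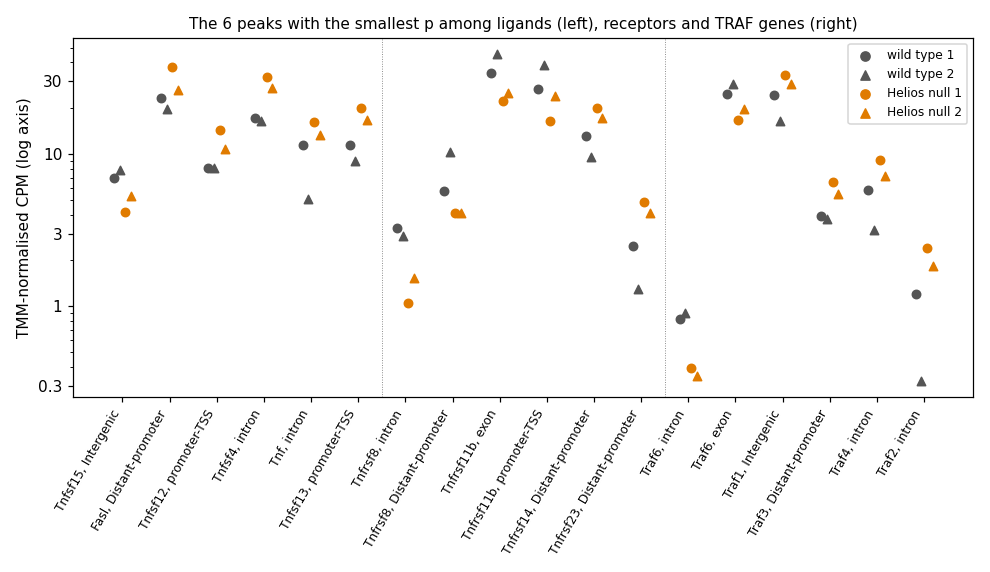
TMM-normalised CPM (log axis) in each of the 4 libraries for the 6 peaks with the smallest unadjusted p among ligands, receptors and TRAF genes, at most 2 a gene (circles: number 1, triangles: number 2; grey: wild type, orange: Helios null). At all 18 peaks the genotypes do not overlap, which their choice by p favours, and none passed the adjusted threshold.

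Promoters of the family differed more between genes than between genotypes. A promoter-class peak was present for 30 of the 47 genes. Per kilobase of peak, the promoter of Traf5 had the highest mean level, 63.5 CPM per kb, followed by Traf7 with 61.1. Tnfsf14, the ligand gene of Tnfrsf14, had 40.9, while Tnfsf18 and Tnfsf15 had 3.85 and 3.07. This level depends on peak width: the Traf5 peak is 230 bp wide and held a mean of 14.6 CPM. The Traf7 and Tnfsf14 peaks, 923 and 1383 bp wide, held 56.4 and 56.6 CPM. The median over all 19883 tested promoter peaks was 15.3 CPM per kb (quartiles 8.50 and 25.7). The Traf5 promoter held 15.7 and 13.7 CPM in wild type and 14.3 and 14.8 in Helios null, and the Traf7 promoter 58.9 and 41.9 against 63.8 and 61.0. The Traf7 peak is annotated to the start of a small nucleolar RNA there. Its log2 fold change of 0.30 went to 0.57 without wild type 1 and to 0.08 without wild type 2. The Traf5 groups overlapped, and the Traf7 groups were apart by less than the wild-type libraries were from each other. The promoter of Tnfsf14 held 57.7 and 60.1 CPM against 52.7 and 56.0, and that of the costimulatory ligand gene Tnfsf9 24.95 and 27.6 against 25.9 and 25.4. That of Tnfsf13b held 7.94 and 12.1 CPM against 5.84 and 8.07 (log2 fold change -0.52, edgeR adjusted p = 0.326). It was -0.82 when wild type 1 was left out, -0.20 when wild type 2 was, and -0.31 when Helios null 1 was.

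Among receptors, the promoter of Cd27 held 12.9 and 11.1 CPM in wild type and 14.9 and 14.4 in Helios null, and that of Ltbr, the lymphotoxin beta receptor gene, 19.4 and 19.8 against 23.9 and 22.6. Those of Tnfrsf18 (15.7 and 13.3 against 19.8 and 18.2 CPM) and Tnfrsf25 (18.2 and 18.7 against 19.8 and 19.9 CPM), both encoding costimulatory receptors of T cells, were apart in the same direction by less than 0.40 on the log2 scale, and the groups overlapped at the upstream one of the Tnfrsf9 promoter peaks, with 28.4 and 24.4 against 25.6 and 28.01 CPM. Of the TRAF promoters, that of Traf4 held 21.7 and 14.1 CPM against 27.6 and 22.7 (log2 fold change 0.48). It was at 0.83 without wild type 1 and at 0.21 without wild type 2. Those of Traf1 (10.3 and 8.52 against 12.9 and 9.47 CPM) and Traf3 (9.37 and 7.43 against 9.63 and 7.02 CPM) overlapped. Traf2 and Traf6 had no promoter-class peak, and neither did Tnf, Lta, Ltb, Fasl, Cd70, Tnfsf4, Tnfsf8, Tnfsf10, Tnfsf11, Tnfrsf1b, Tnfrsf10b, Tnfrsf17, Tnfrsf21, Tnfrsf22 or Tnfrsf26, 17 genes in all. The class is an annotation, and its absence does not show that a start is closed. Traf6 had its peak in exon 1, and peaks of Tnfsf4 (start 161395372) and Tnfsf8 (start 63860772) spanned an edge of their gene. Over the 36 member promoter peaks the median log2 fold change was 0.14, against 0.02 over all promoter peaks.

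**Figure D3:**
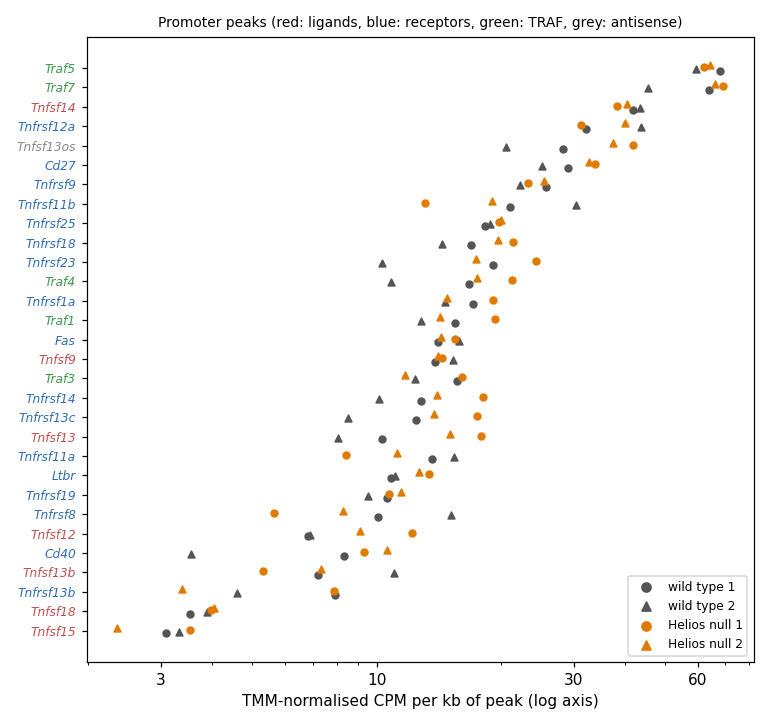
TMM-normalised CPM per kb of peak (log axis) at the strongest promoter peak of each of the 30 genes that have one, in each of the 4 libraries, ordered by mean level (gene names: ligands red, receptors blue, TRAF green, antisense grey). Levels run from 3.07 CPM per kb at Tnfsf15 to 63.5 at Traf5, whose peak is only 230 bp wide, and at most genes the genotypes lie close together.

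Many family genes sit side by side in the genome, in 9 clusters of member genes at most 1 Mb apart. All peaks lay on 1 side of 0 in 3 of these clusters. In the Cd27, Ltbr and Tnfrsf1a cluster on chromosome 6, 16 of 16 peaks had a log2 fold change above 0 (median 0.28), and the summed level was 175.0 and 142 CPM in wild type and 208 and 184 in Helios null. In the Ltb, Tnf and Lta cluster within the major histocompatibility region of chromosome 17, 5 of 5 peaks lay above 0 (median 0.65), with sums of 36.3 and 18.7 CPM against 52.4 and 38.04. In the Tnfsf13os, Tnfsf13 and Tnfsf12 cluster on chromosome 11, 3 of 3 lay above 0 (median 0.69), with sums of 25.4 and 21.4 against 42.9 and 35.2. All 3 clusters had both null libraries above both wild-type libraries. The neighbours Tnfrsf1b and Tnfrsf8 on chromosome 4 had 3 of 25 peaks above 0 (median -0.30) and sums of 340.2 and 402 CPM against 294 and 308. Tnfsf15 and Tnfsf8, elsewhere on chromosome 4, had 4 of 20 above 0 (median -0.28), and Tnfsf9, Cd70 and Tnfsf14 on chromosome 17 had 2 of 9 (median -0.15). Tnfrsf26, Tnfrsf22 and Tnfrsf23 on chromosome 7 had 9 of 10 above 0 (median 0.35). The cluster of Tnfsf4, Tnfsf18 and Fasl on chromosome 1 was mixed, with 13 of 22 peaks above 0, and so was that of Tnfrsf12a and Traf7 on chromosome 17, with 5 of 7.

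The surroundings of the genes had the same direction in most cases. For each member gene, the median log2 fold change of all other tested peaks within 250 kb was taken, with family peaks left out. It had the sign of the gene's own median for 41 of 46 genes with at least 10 such peaks, and for 25 of 28 (89.3%) with at least 4 peaks of their own. Over all 11740 genes with as many peaks the share was 88.8%, so the members were near the background in this. The correlation across the 28 genes was 0.84 (Pearson) and 0.86 (Spearman), against 0.90 and 0.91 over all genes. Genes of 1 cluster share their surroundings, and all values come from the same 4 libraries. The 7 TRAF genes all had the sign of their surroundings: around Traf4, 68 of 68 other peaks lay above 0 (median 0.63), around Traf3 51 of 55 (0.44), around Traf1 47 of 49 (0.32), and around Traf6 11 of 40 (-0.27). Around Tnf, 88 of 90 other peaks lay above 0 (median 0.64), and around Tnfrsf11b 0 of 9 (median -0.95). Local gene density moved with these values: of the 23 member genes with more protein-coding genes within 0.5 Mb than the member median, 21 had a median above 0, against 10 of the other 23, and the part of density in the differences was not tested.

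**Figure D4:**
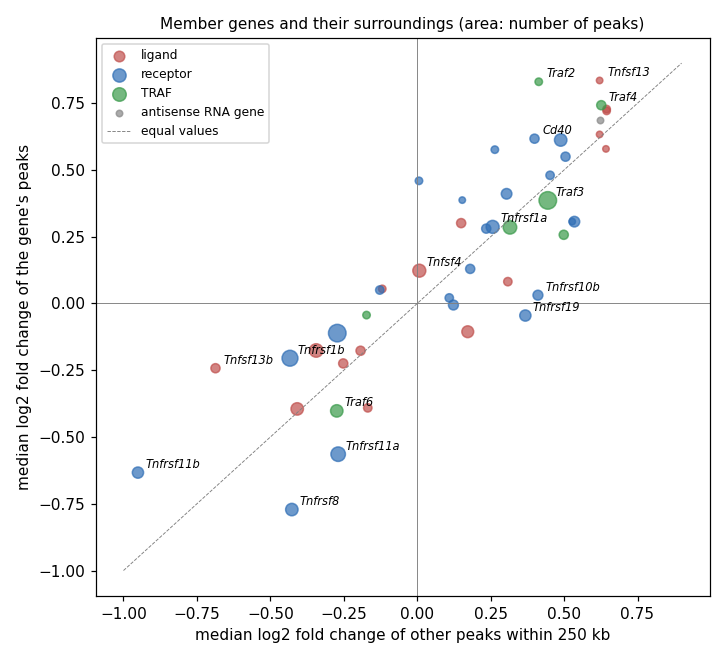
Median log2 fold change of each member gene's peaks (vertical) against the median of all other tested peaks within 250 kb (horizontal), 1 point a gene, point area by number of peaks, colour by class, with the line of equal values. Most genes lie where both medians are below 0 or both above 0, and Tnfrsf8 and Tnfrsf11a lie below the line at -0.77 and -0.56 where their surroundings have -0.43 and -0.27.

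Some peaks stood apart from their surroundings. The Tnfsf4 intron peak had a log2 fold change of 0.81 where the median of 20 other peaks within 250 kb was 0.02. The Traf2 intron peak had 1.36 where it was 0.41, the Tnfrsf8 intron peak -1.27 where it was -0.48, and the weak Traf6 intron peak -1.19 where it was -0.27. The largest gap among the members, found after the values were seen, was at a distal Tnfrsf21 peak (chromosome 17, start 42952490, end 42952661) with 0.57 where 1 of 13 other peaks lay above 0 (median -0.42). That peak is weak, so its value is imprecise: its mean normalised count in the authors' deposited table is 19.6. The authors' DESeq gave it a log2 fold change of 0.063 and an unadjusted p of 0.41. By contrast, the Tnfsf12 promoter at 0.63 equalled its surroundings (0.62), and the Tnfrsf11b exon peak at -0.74 lay above them (-0.95). The 37 member peaks on chromosome 1 had a median log2 fold change of -0.16, against -0.08 over all tested peaks of that chromosome and 0.11 over the 229 members elsewhere.

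Genes downstream of the receptors were described by a list of 42 genes with 310 tested peaks. None passed in edgeR. At an unadjusted p under 0.05 there were 31 higher (10.0%, against 8.29% of all tested peaks) and 30 lower (9.68%, against 11.5%), and the median log2 fold change was 0.15. The 14 kinase genes had 92 of 130 peaks above 0 (70.8%, median 0.28) and the 18 adaptor and ubiquitin genes 62 of 97 (63.9%, 0.15). The 10 NF-kB genes had 36 of 83 (43.4%, -0.09), against 50.4% and 0.01 over all tested peaks. Peaks of 1 gene share a locus, and a few genes weigh heavily in the kinase count. Map3k5, Map3k1 and Map3k14 had 27 of 28, 15 of 15 and 11 of 11 peaks above 0, and Map3k7 0 of 16. The smallest p belonged to an intergenic peak 41401 bp from Map3k7, the gene of the kinase TAK1, which held 7.14 and 10.5 CPM in wild type and 2.80 and 3.05 in Helios null (log2 fold change -1.58, SE 0.30, edgeR adjusted p = 0.189). All 16 Map3k7 peaks lay below 0. The exon 1 peak of Otulin, which encodes a deubiquitinase of linear ubiquitin chains, held 33.6 and 43.7 CPM against 19.4 and 22.1 (log2 fold change -0.89, edgeR adjusted p = 0.189), and DESeq2 called it (DESeq2 adjusted p = 0.035). With 1 library left out, the log2 fold change of the Map3k7 peak lay between -1.85 and -1.29.

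Higher in this list were promoter peaks of Tnip1, an inhibitor of NF-kB signalling (1.86 and 1.74 against 4.52 and 4.19 CPM), and of the kinase gene Tbk1 (0.698 and 1.81 against 5.24 and 2.88 CPM). An intron peak of Map3k5, the gene of the stress kinase ASK1 (5.85 and 3.29 against 10.7 and 9.21 CPM), and an intergenic peak of Rela, the NF-kB p65 gene (19.8 and 13.7 against 31.0 and 27.3 CPM), were higher too. Their log2 fold changes were 1.27, 1.80, 1.09 and 0.79, each with an edgeR adjusted p of 0.189 and non-overlapping groups. The Tnip1 and Tbk1 peaks are weak, with 56 and 27 and with 21 and 28 wild-type counts. Each is 1 of several promoter-class peaks of its gene (3 and 4). The gene medians were 0.42 over 12 Tnip1 peaks and 0.10 over 11 Tbk1 peaks. In the authors' deposited table the strongest Tbk1 peak (start 121590748) had a log2 fold change of 0.19. The difference at the named Tbk1 peak was 2.77 within number 1 and 0.65 within number 2, and its log2 fold change ranged from 1.17 to 2.54 with 1 library left out. None of the 6 named downstream peaks changed direction when any 1 library was left out. Chosen after their values were seen, Map3k14, the NIK kinase gene that Traf3 restrains, had 11 of 11 peaks above 0 (median 0.77), and Nfkbiz, which encodes an atypical IkB protein, 0 of 16 (median -0.62). Casp8 and Cflar, which carry and block the death signal and lie on chromosome 1 as Ikzf2 does, had 4 of 4 and 7 of 7 peaks above 0 (medians 0.32 and 0.30).

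The deposited comparison rests on the same 4 libraries and is not independent. In the authors' deposited table, 136 member peaks had an adjusted p and none was under 0.05, where 0.455% of all peaks with one were called as higher and 0.958% as lower. In the authors' deposited table the member with the smallest adjusted p was the Tnfsf4 intron peak (log2 fold change 0.66, SE 0.27, adjusted p = 0.058), followed by the Tnfsf13 promoter (log2 fold change 0.65, adjusted p = 0.073). Of the downstream genes, the authors' deposited table called the named peaks of Map3k7 (log2 fold change -1.42, adjusted p = 0.0085) and Otulin (-0.76, adjusted p = 0.042).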

How the data were processed

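The submitters' processing notes name the mm10 build, DESeq, HOMER, Bowtie2 2.3.4.3 and bcl2fastq 2.17.1.14 without saying which step each served, and the sources used here name no peak caller. Per the file headers, the deposited values per library are raw counts per peak. The authors' table also holds a mean normalised signal, a log2 fold change of Helios null over wild type with its standard error, and raw and adjusted p-values, the adjusted one present for 54782 peaks.

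Counts were analysed with edgeR 4.0.16 in R 4.3.3: filterByExpr by group left 130754 of 130941 peaks, libraries were scaled by TMM, and genotype was tested over all of them with glmQLFit and glmQLFTest (2-sided, Benjamini-Hochberg adjusted p under 0.05). The test was also run on simulated counts with the same spread for every peak and no effect of library number. Same-numbered real libraries deviate together, so that run does not show how the test behaves in these data. CPM are TMM-normalised, and log2 CPM, used for differences within library numbers, had a prior count of 2. limma 3.58.1 (voom) and DESeq2 1.42.0 were alternatives. Each library is taken as a separate mouse, so p-values measure only the spread between these libraries. Within each genotype the libraries differed beyond sampling noise (chi-square over its degrees of freedom 8.29 for wild type and 5.13 for Helios null). Precision is limited by 2 libraries a group.

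Named are the 6 peaks with the smallest p per class (at most 2 a gene), the strongest promoter peak of every TRAF, 5 ligand and 10 receptor genes, genes with 5 or more peaks, clusters and 6 downstream peaks. The members and lists were chosen with earlier results of these data known. Gene names are the table's assignments: 146 member peaks lie inside the assigned gene, and 15 lie inside another protein-coding RefSeq gene. No genome sequence was used here, so only promoter windows could be printed. The NF-kB consensus searched in them is the usual form with ambiguity letters, and it replaced a simpler form after matches to that form had been seen.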

Additional observations from a re-analysis of the deposited data

How the results depend on the processing

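No member passed under DESeq2 size factors, no filter, a stricter filter (at least 1 CPM in 2 libraries) or limma-voom. The count over all peaks was 8 with edgeR, 4 with limma-voom and 991 with DESeq2 (2.88% of peaks with an adjusted p). DESeq2 called 1 member (1.19% of members with one), the Tnfsf4 intron peak. Leaving out 1 library in turn gave 39 to 28120 peaks over all and 0 to 43 members, the highest without wild type 1; the lone library of a group is then assumed to vary like the others, and the cause was not tested. The median log2 fold change of members was 0.022 to 0.15 with a library left out (0.022 without wild type 2), 0.14 over promoter peaks, 0.26 with 1 value per gene and 0.11 without chromosome 1. With 1 library left out, non-overlap is more frequent by construction and cannot be set against the counts from all 4 libraries: it held for 97 to 133 members as higher (35.4% to 44.0% of all tested peaks) and 85 to 98 as lower (35.2% to 42.6% of all).

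With replicate number as a block (replicate block), edgeR called 30595 peaks (23.4%) and 44 members (16.5%), 30 higher and 14 lower. Of the 52 TRAF peaks 9 were called, 8 higher and 1 lower, where 23.4% of all tested peaks were called, 13795 higher and 16800 lower. The 9 include the named peaks of Traf1, Traf2 and Traf4 and the exon peak of Traf6. Nothing in the labels ties a number to a litter or a day. Same-numbered libraries deviated together (correlation 0.371 across peaks), and number also follows sex and, within each genotype, depth, which cannot be told apart. No block applies to the non-overlap counts.

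Directions near 0 changed for the promoter peaks of Traf5 (-0.11 to 0.078 with a library left out), Traf3 (-0.26 to 0.19), Tnfsf9 (-0.11 to 0.041), Tnfrsf9 (-0.083 to 0.13), Tnfrsf1a (-0.10 to 0.27) and Fas (-0.10 to 0.081, and 0.0071 with limma-voom). The counts of peaks above 0 by class in each alternative were added after seeing the data. Peaks of few counts, such as the Traf2 intron peak, are limited by depth.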
